A study of Mus musculus with 42 samples.

Results

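The 116 genes described here are the abundant long noncoding RNAs of mouse embryonic stem cells leaving the undifferentiated state. They were chosen by 2 criteria, a lincRNA, antisense or processed transcript biotype in the GENCODE vM21 annotation and a mean of at least 2 log2 CPM (read counts scaled to library size, on a log2 scale) over all 42 libraries. They are 116 of 565 genes with such a biotype and of 14296 genes in all. The imprinted RNAs Meg3, Rian, Mirg, H19, Kcnq1ot1 and Airn, the snoRNA host Gas5 and all symbols that start with Snhg were left out by rule. That removed 12 genes that passed the level. Genes of other symbols whose exons overlap snoRNAs on the same strand, such as 1110038B12Rik and 1810032O08Rik, stayed in. Because the mean level chose the members, the levels are given as a description. The faintest members were Gm17586 at 2.01 and 5031425E22Rik at 2.07, and the nearest genes outside were 4930461G14Rik at 1.98 and Gm16755 at 1.94.

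The cells were of the line W9.5, an embryonic stem cell line of 129X1/SvJ background for which the labels name no transgene. LIF, the factor that holds such cells undifferentiated, was withdrawn and the cells formed embryoid bodies, without a directing factor, and poly-A RNA was taken at 21 times from 0 h to 120 h, every 6 h. Duplicate libraries, A and B, were made at each time, and no other treatment or genotype was compared. The sources call A and B biological replicates of this one line without saying how the cultures were separated, so p-values measure the spread between these libraries.

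Long noncoding RNAs are transcripts that are processed like messenger RNA but carry no long open reading frame. Some build structures in the nucleus, some act on the chromosome they are made from, some are cut to release microRNAs or snoRNAs, and many arise at the promoter of a coding gene that is read the other way. In embryonic stem cells several are known to be high in the pluripotent state and to change early in differentiation.

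Of the 116 members, 56 were lincRNAs, 30 antisense transcripts and 30 processed transcripts. The label did not hold for all of them. RefSeq lists 12 members as protein coding, among them Cct6a, a subunit of the cytosolic chaperonin and the highest member by CPM, and Ifi30, a lysosomal thiol reductase. It lists 70 as long noncoding RNA and Tsix as antisense RNA, lists Selenok-ps1 as a transcribed pseudogene, and had no entry of the same symbol for 32.

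The counted reads per library ranged from 10120972 to 51652434, with a median of 29692082, and 3 reads corresponded to 0.0571 to 0.316 CPM. In bulk samples, fewer cells of a type and less RNA per cell cannot be told apart. Of the markers of the stem cell state, Pou5f1 was at 9.98 log2 CPM at 0 h and 8.39 at 108 h. The primitive streak marker T was at -1.65 at 0 h and 5.0 at 108 h. Of 5 fibroblast markers, Thy1 stood at 4.37 and Col1a1 at 2.40 at 0 h, while Col1a2, Col3a1 and Postn were between -5.58 and -3.25. At 108 h and 120 h Col1a1 was at 4.32 and 5.90, Col1a2 at 2.23 and 4.66, Col3a1 at -1.47 and 1.44, Postn at 0.52 and 2.29 and Thy1 at 2.28 and 1.82. Of the listed trophoblast markers, Krt8 went from 5.5 at 0 h to 10.09 at 108 h and Cdx2 from -4.17 to 2.08. The third, Elf5, was not among the genes measured. The part of such cells in the levels below, the late changes among them, was not tested.

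Some libraries stood apart for some members. In 0 h replicate B the members took 1.19% of the counted reads, against 0.286% to 0.486% in the other 41 libraries. The excess lay in Gm42418, at 9.16 log2 CPM in 0 h A and 12.83 in 0 h B, and in Gm26917, at 5.98 and 7.43. These neighbouring lincRNAs on chromosome 17 (39843013 to 39848788, GRCm38) lie at a locus known to match ribosomal RNA. In the other libraries Gm42418 was between 7.99 and 9.71 at the times tested below, and the F test over time did not call it (limma, adjusted p = 0.236). The F test called Gm26917 (adjusted p = 1.32e-05). In the limma fit Gm26917 was also called lower at 120 h than at 0 h, by -1.13 in A and -2.21 in B (adjusted p = 8.54e-05). It thus enters those counts below. The second group was the 25 members that overlap a protein-coding partner on the other strand and have no start of such a gene within 2000 bp of their own. Their median SD between duplicates was 0.421, against 0.186 for the 48 members without any exon overlap. Their A minus B differences moved together, with a mean correlation between members of 0.345 over the 21 times, against 0.0249 for the 48.

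**Figure D1:**
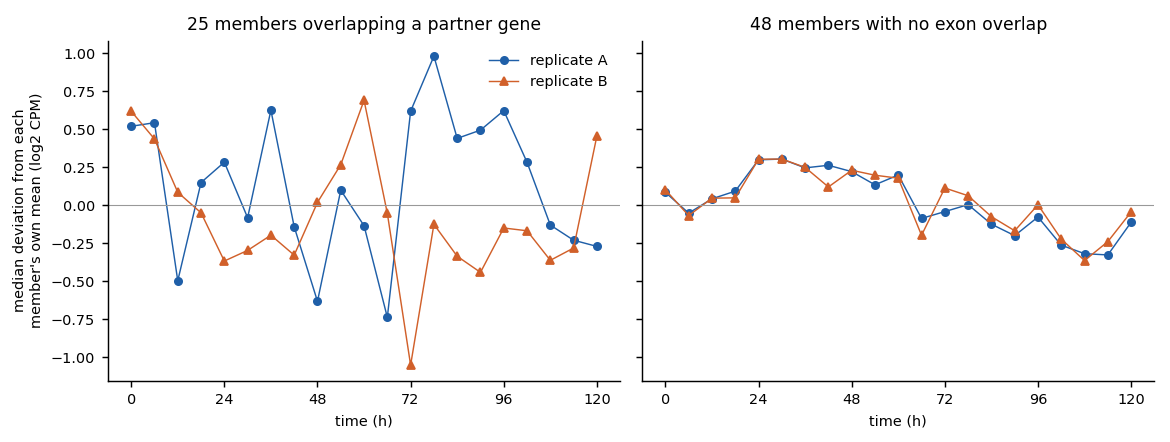
Median deviation of the members from their own mean over all libraries (log2 CPM, vertical axis) against time in hours, for replicate A (circles) and B (triangles), in the 25 members that overlap a partner gene (left) and the 48 with no exon overlap (right). On the left the duplicates part, most at 72 h (0.62 in A and -1.05 in B), while on the right they stay close at every time.

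At 72 h this group differed most. Gm19553, which lies across Pou5f1 on the other strand, was at 5.23 log2 CPM in replicate A and 2.23 in B, while Pou5f1 itself was at 9.55 and 9.60. Gm17275, opposite the histone gene H3f3a, was higher in A by 4.56 and Gm26518, opposite Pcbp2, by 3.78. Of the 25 members, 17 were higher in A at 72 h, with a median difference of 1.37 against -0.17 for their partners. The sources do not state the strand setting of the read counting, so reads of such a member and of its partner cannot be told apart here, and their part in these values was not tested. Of the other 91 members, 35 also have an exon that overlaps an exon on the other strand. Some of these overlap a coding partner whose start lies within 2000 bp, such as Gm11175 with Jund. Over all 59 members with such an exon overlap, 24 of them among the 25, the median SD was 0.259 and the mean correlation 0.135. Each count of changed members below is therefore also given for the 91 and for the 48 with no exon overlap. The 48 still hold members that RefSeq lists as protein coding, such as Zswim6, Gm6712, Trerf1 and Tctn2.

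Of the microRNAs that lie within a member on the same strand, RefSeq (GRCm38.p6) held 29 mature sequences in 6 members. Mature microRNAs were not measured, since the libraries held poly-A RNA. The sequences are shown to describe what the hosts carry. Capitals mark the seed, the bases 2 to 8 that pair with a target. A link between the seeds and the courses of the hosts was not tested. Mir17hg, on chromosome 14 (115042879 to 115046727, plus strand), carries 2 pairs with a shared seed, miR-17 with miR-20a and miR-19a with miR-19b, beside miR-18a and miR-92a.

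mmu-miR-17-5p: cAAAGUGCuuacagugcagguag
mmu-miR-20a-5p: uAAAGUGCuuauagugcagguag
mmu-miR-18a-5p: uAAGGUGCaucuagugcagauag
mmu-miR-19a-3p: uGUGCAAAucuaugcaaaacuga
mmu-miR-19b-3p: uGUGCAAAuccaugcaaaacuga
mmu-miR-92a-3p: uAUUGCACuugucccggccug

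The lincRNA 6720427I07Rik, on chromosome 13 (48532905 to 48546500, minus strand), carries 3 members of the let-7 family, all with 1 seed, and Dleu2 on chromosome 14 (61602839 to 61682373, minus strand) carries miR-15a and miR-16, which share another. Ftx on the X chromosome carries miR-421 and miR-374b. Mir124a-1hg on chromosome 14 (64587331 to 64593961, plus strand) is the host of Mir124a-1.

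mmu-let-7d-5p: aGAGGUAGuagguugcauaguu
mmu-let-7f-5p: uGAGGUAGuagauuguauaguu
mmu-let-7a-5p: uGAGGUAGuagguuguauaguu
mmu-miR-15a-5p: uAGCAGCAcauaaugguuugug
mmu-miR-16-5p: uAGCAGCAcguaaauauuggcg
mmu-miR-374b-5p: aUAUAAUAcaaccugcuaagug

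The highest members by mean CPM were Cct6a (9.16 log2 CPM), Gm42418 (9.03), Malat1 (8.77), Mir17hg (6.87), 1700020I14Rik (6.74), Tug1 (6.64), 1110038B12Rik (6.31), Neat1 (6.05), Ifi30 (5.87) and Gm26917 (5.65). Per kilobase of exon the order of levels changed. Gm42418 led with 8.16 log2 CPM per kb, ahead of Cct6a with 7.31 and the short transcript 2410006H16Rik with 6.47. Malat1 followed with 5.97, and Mir17hg had 5.05 at rank 10.

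A limma fit over all 14296 genes asked first which genes differed between any of the 21 times, with an adjusted p under 0.0001 as the threshold throughout. Of the members 74 passed, 63.8%, against 74.6% of all genes. Of the 25 that overlap a partner 6 passed, 24.0%, and of the other 91 members 68 passed, 74.7%. Of the 59 with an exon overlap on the other strand 25 passed, 42.4%, and of the 48 with no exon overlap 43 passed, 89.6%. Of the 12 members that RefSeq lists as protein coding 11 passed, 91.7%, against 63 of the other 104, 60.6%. Some of those 12 are among the 48. Of the 42 members that did not pass, 19 are among those 25 and 5 have no exon overlap. The distance between the highest and lowest time mean had a median of 1.75 log2 over the members, against 1.23 over all genes with a mean of at least 2, and the median SD between duplicates was 0.209 against 0.152. The widest courses belonged to Mir124a-1hg (5.74), Miat (5.11), Halr1 (4.84), Gm13110 (4.12) and Neat1 (3.89).

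**Figure D2:**
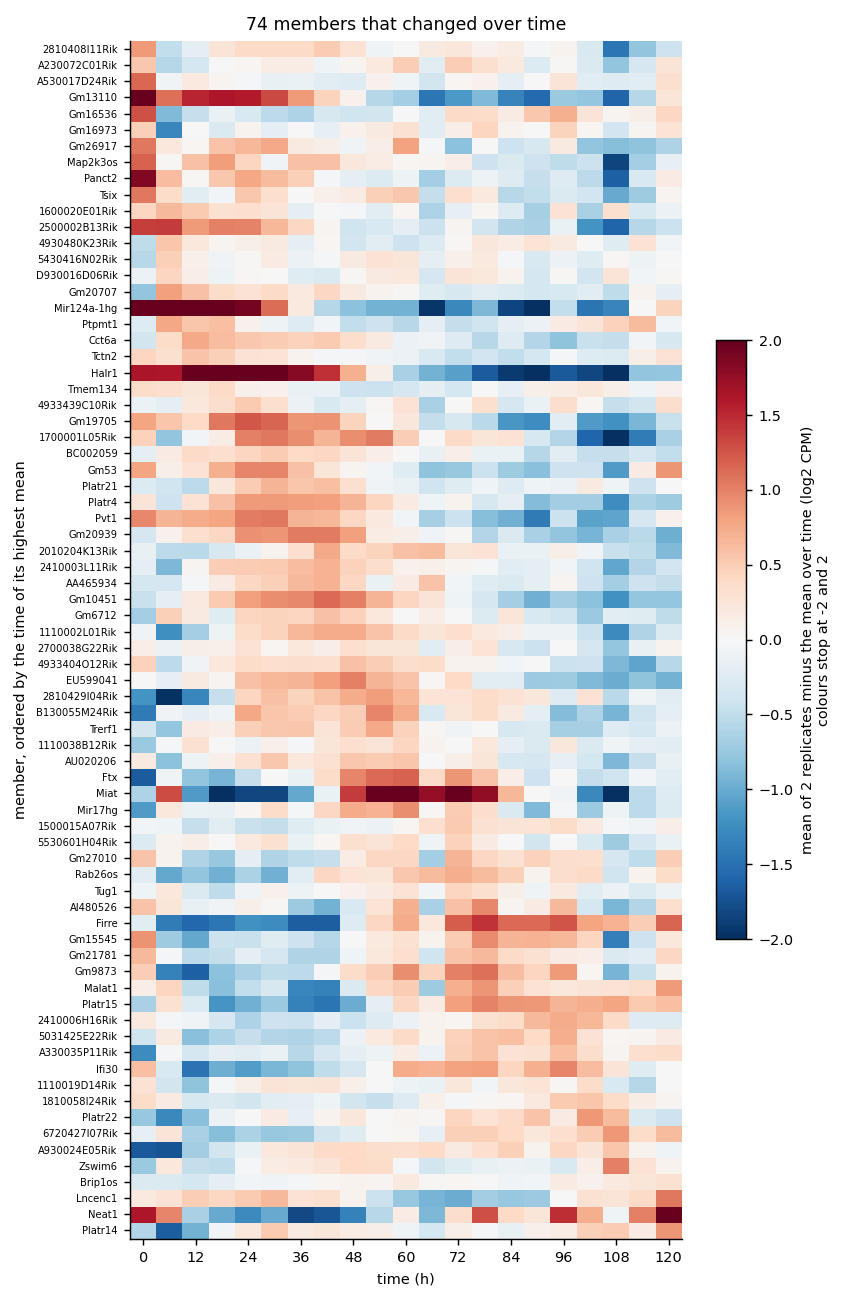
Heat map of the 74 members that changed over time, ordered by the time of their highest mean, with time in hours across. Colour gives the mean of the duplicates minus the member's mean over time in log2 CPM, red above and blue below. A blue column at 108 h crosses many rows, with Miat and 1700001L05Rik among the darkest.

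The time of the highest mean fell at 0 h for 25 members, 21.55% against 16.64% of all genes, and at 6 h for 15 (12.93% against 11.35%). It fell between 12 and 24 h for 9 (7.76% against 11.21%) and between 30 and 48 h for 17 (14.66% against 14.89%). Between 54 and 72 h it fell for 20 (17.24% against 11.67%), between 78 and 96 h for 19 (16.38% against 12.37%) and between 102 and 114 h for 7 (6.03% against 18.45%). At 120 h 4 members peaked (3.45% against 3.43%). These shares hold all members and all genes, also those that the F test did not call. For the 42 members not called, the time of the highest mean was not set apart from the spread between duplicates. Gm42418, Gm19553, Gm17638 and Gm17275 are such members among those at 0 h.

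From 0 h to 6 h, 11 members rose and 18 fell, 25% of the 116, against 26.3% of all genes (11.8% up and 14.5% down). Without the 25 members of the second group, 26 of 91 changed, and of the 48 with no exon overlap 4 rose and 9 fell. Zswim6 and Gm6712, which RefSeq lists as protein coding, are among those 4 rises. Among the rises were the microRNA hosts Mir17hg and Ftx and the nuclear RNA Miat, first known from neurons. Mir17hg went from 5.66 and 5.82 log2 CPM in replicates A and B to 7.15 and 7.0, a difference of 1.33 ± 0.14 (SE, adjusted p = 5.65e-09). Ftx went from 2.0 and 2.38 to 3.77 and 3.79 (1.59 ± 0.16, adjusted p = 2.26e-09). Both 6 h libraries were above both 0 h libraries for each gene. Gm20707, a lincRNA whose exons overlap those of the zinc finger gene Zfp984 on the same strand, so that its reads are uncertain, went from 2.47 and 2.43 to 4.13 and 3.99 (1.61 ± 0.13, adjusted p = 9.05e-11). Miat went from 1.31 and 1.89 to 3.50 and 3.55 (1.92 ± 0.31, adjusted p = 8.62e-06). Without 0 h A, 6 h A or 6 h B the difference of Miat was 1.63, 1.95 and 1.90 and missed the threshold (adjusted p of 0.000882, 0.000208 and 0.000261).

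The falls were led by Gm16536, antisense to the protease gene Bace1, and by the lincRNAs Gm9873 and Gm16973. Gm16536 went from 3.50 and 3.60 to 1.27 and 1.5, a difference of -2.16 ± 0.15 (adjusted p = 6.62e-12). Gm9873 went from 3.91 and 4.25 to 2.19 and 2.27 (-1.85 ± 0.20, adjusted p = 9.58e-09). Gm16973, opposite Mphosph8, went from 4.08 and 4.36 to 2.43 and 2.46 (-1.78 ± 0.14, adjusted p = 2.96e-11). In these the duplicates lay much closer to each other than the times did, and Gm16536 and Gm16973 are among the members that overlap a partner. Panct2, named for its link to pluripotency, fell by 1.24 ± 0.13 (adjusted p = 1.38e-08), and Platr14, of the pluripotency-associated transcripts, fell by 1.06 ± 0.17 (adjusted p = 9.12e-06). The count for this step fell to 17 without 6 h A, to 15 without 0 h B and to 17 without 6 h B.

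From 6 h to 24 h, 13 members rose and 5 fell, 15.5% against 11.4% of all genes (5.64% up and 5.76% down), and 17 of the 91 changed. Of the 48 with no exon overlap 10 rose and 1 fell. This step shares the 6 h libraries with the one before, and 7 of the 13 had fallen between 0 h and 6 h. The largest rise was 2810429I04Rik, a lincRNA on chromosome 13, from 1.09 and 1.01 log2 CPM to 3.44 and 3.45 (2.40 ± 0.24, adjusted p = 7.64e-09). Platr14 rose from 1.29 and 1.05 to 3.10 and 2.95, by 1.85 ± 0.17 (adjusted p = 2.38e-09). The lincRNA 1700001L05Rik rose from 2.80 and 2.52 to 4.42 and 4.51 (1.81 ± 0.20, adjusted p = 3.9e-08). In each the duplicates at 24 h lay close together and above both 6 h libraries. 1110002L01Rik, which starts 154 bp from the Polycomb-linked gene Asxl2, rose by 1.59 ± 0.10 (adjusted p = 1.56e-12). Its exons overlap those of Asxl2 and Kif3c on the other strand, and the part of their reads in its value was not tested.

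The falls of this step were Miat, Neat1, R74862, Platr15 and Ifi30. Miat went back from 3.50 and 3.55 to 0.49 and 0.28, a difference of -3.14 ± 0.31 (adjusted p = 7.48e-09). Neat1, the scaffold of the nuclear bodies called paraspeckles (chromosome 19, 5824708 to 5845478, minus strand), went from 7.08 and 6.97 to 4.55 and 4.99 (-2.26 ± 0.13, adjusted p = 1.75e-13). Both 24 h libraries were below both 6 h libraries for these genes. R74862, antisense to Cd81, fell by 1.74 ± 0.28 (adjusted p = 1.58e-05), a call lost without 6 h A (-1.83), 6 h B (-1.64) or 24 h B (-1.46), with adjusted p of 0.000227, 0.000731 and 0.00171. Its exons overlap those of Cd81 on the other strand, and in the same step Cd81 fell by 1.37 (adjusted p = 4.15e-10). The part of Cd81 reads in the value of R74862 was not tested. Platr15 fell by 1.28 ± 0.23 (adjusted p = 6.17e-05) and missed the threshold without any one of the 4 libraries, with adjusted p from 0.000632 to 0.00217.

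**Figure D3:**
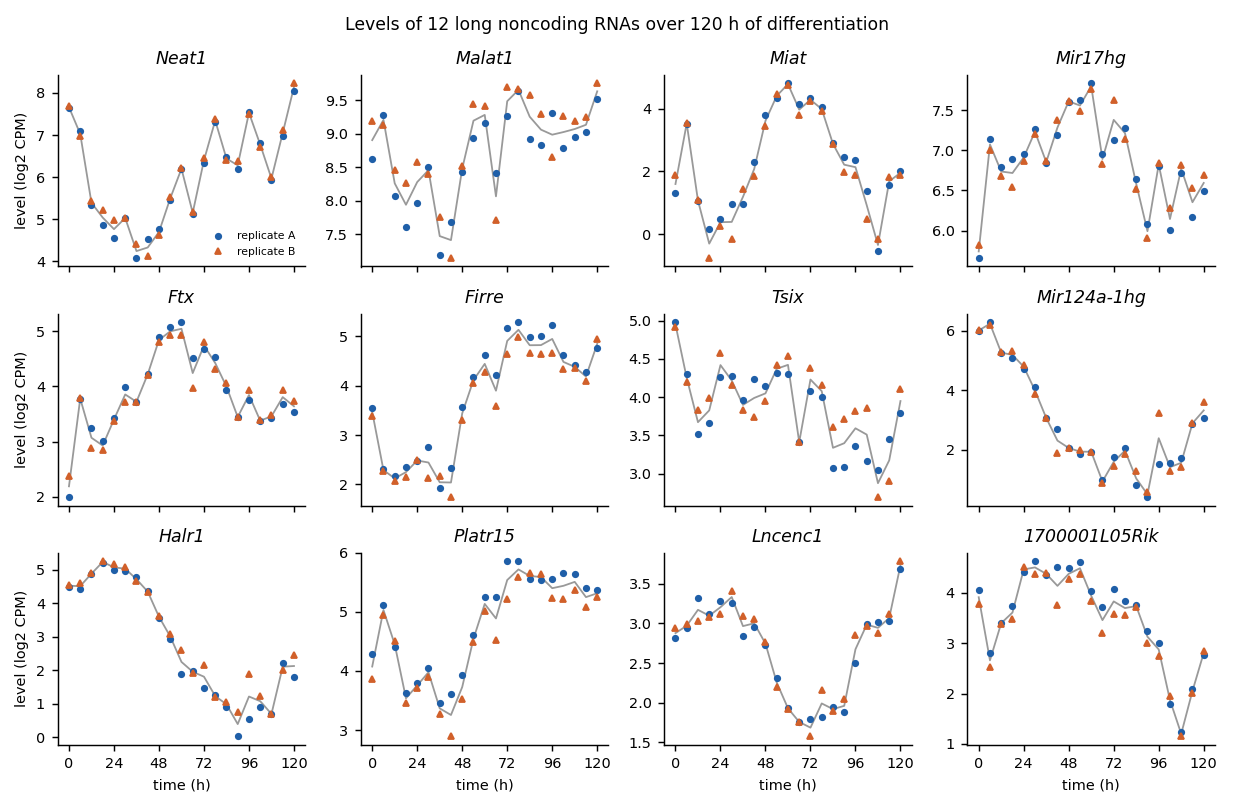
Levels of 12 members (log2 CPM, vertical axes of unlike range) against time in hours, with replicate A as circles, B as triangles and a grey line through their means. Neat1 was lowest at 36 h (4.25) and highest at 120 h (8.14), Mir124a-1hg had a mean of 6.24 at 6 h and 0.50 at 90 h, and 1700001L05Rik was lowest at 108 h (1.20).

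Between 24 h and 48 h few members moved. 2 rose and 4 fell, 5.17% against 8.97% of all genes (5.27% up and 3.7% down), and all 6 were among the 91, with 3 falls and no rise among the 48. The 2 that rose, Miat and Ftx, have no coding partner. They are outside the 48 because an overlap with any annotated gene counts. Miat rose again, from 0.49 and 0.28 log2 CPM to 3.79 and 3.43 (3.22 ± 0.31, adjusted p = 5.79e-09), and Ftx rose by 1.44 ± 0.16 (adjusted p = 3.58e-08). Mir124a-1hg, host of a microRNA that marks neurons, fell from 4.72 and 4.86 to 2.07 and 2.05 (-2.73 ± 0.31, adjusted p = 7.58e-08). 2500002B13Rik went from 3.76 and 3.67 to 2.37 and 2.29 (-1.38 ± 0.15, adjusted p = 2.51e-08). For these 4 the duplicates of one time never reached those of the other. Gm13110 fell by 1.49 ± 0.22 and Panct2 by 0.95 ± 0.13. Gm13110 missed the threshold without any one of the 4 libraries (adjusted p from 0.000177 to 0.000301), and Panct2 without 24 h A (-0.96), 24 h B (-0.95) or 48 h B (-0.86), with adjusted p of 0.000113, 0.000139 and 0.000309.

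Between 48 h and 72 h, 4 members rose and 5 fell, 7.76% against 9.38% of all genes (5.6% up and 3.78% down), and all 9 were among the 91, with 2 rises and 5 falls among the 48. Neat1 rose from 4.76 and 4.64 log2 CPM to 6.34 and 6.46 (1.70 ± 0.13, adjusted p = 2.01e-10), and Ifi30 rose by 1.14 ± 0.14 (adjusted p = 7.63e-07). Platr15 went from 3.93 and 3.52 to 5.86 and 5.22 (1.81 ± 0.23, adjusted p = 6.43e-07). Firre, an X-linked RNA rich in repeats, went from 3.57 and 3.30 to 5.18 and 4.64 (1.47 ± 0.23, adjusted p = 1.66e-05). Their 72 h libraries were above both 48 h libraries, but further apart from each other than those of Neat1. Halr1, a lincRNA beside the HoxA genes (chromosome 6, 52102949 to 52113684, plus strand), fell from 3.57 and 3.63 to 1.47 and 2.16 (-1.79 ± 0.29, adjusted p = 2.29e-05). Lncenc1, known from naive stem cells, fell by 1.06 ± 0.14 (adjusted p = 1.55e-06), Gm10451 by 1.09 ± 0.16 (adjusted p = 4.7e-06) and Gm13110 by 1.23 ± 0.22 (adjusted p = 8.63e-05).

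The calls of this step rested on single libraries more than others. Their count was 4 without 48 h A, 3 without 72 h A and 3 without 48 h B. Without 72 h A, Firre rose by 1.20 (adjusted p = 0.00147), Platr15 by 1.49 (adjusted p = 0.000102), and Halr1 fell by 1.45 (adjusted p = 0.00193). Without 48 h A the adjusted p was 0.000163 for Firre and 0.00051 for Halr1. Without 48 h B it was 0.00108 for Firre, 0.000713 for Halr1 and 0.000106 for Platr15. Gm13110 missed the threshold without any one of the 4 libraries (adjusted p from 0.000318 to 0.00343), Gm10451 without 48 h A, 72 h A or 48 h B (adjusted p from 0.000103 to 0.000324), and Lncenc1 without 72 h B (-0.96, adjusted p = 0.000128).

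Between 72 h and 108 h the members moved mostly one way. 22 fell and 2 rose, 20.7% against 15.3% of all genes, of which 8.42% rose and 6.86% fell. The median difference over the members was -0.43, against -0.001 over all genes. Without the 25 members of the second group, 23 of 91 changed and the median was -0.46. Among the 48 with no exon overlap 13 fell and 2 rose. Of these 48, 32 were lower at 108 h in both replicates and 8 higher in both, with a median of -0.57 in A and -0.68 in B. The low level was not confined to 108 h. The median deviation of the 48 from their own means was -0.32 in A and -0.36 in B at 108 h. It was -0.26 and -0.22 at 102 h and -0.33 and -0.24 at 114 h.

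Miat (chromosome 5, 112213228 to 112229395, minus strand) fell the most, from 4.32 and 4.24 log2 CPM to -0.54 and -0.13, a difference of -4.62 ± 0.31 (adjusted p = 3.32e-12). 1700001L05Rik (chromosome 15, 83353847 to 83367282, minus strand) went from 4.07 and 3.59 to 1.24 and 1.16 (-2.63 ± 0.20, adjusted p = 2.51e-11). Map2k3os, read away from the kinase gene Map2k3, went from 2.02 and 2.50 to 0.38 and 0.22 (-1.96 ± 0.20, adjusted p = 7.21e-09). For these both 108 h libraries were below both 72 h libraries by more than the duplicates differed. Gm9873 fell by 1.93 ± 0.20, Gm15545 by 1.88 ± 0.21, Panct2 by 1.36 ± 0.13, Tsix by 1.35 ± 0.24, Platr4 by 1.31 ± 0.17 and Ftx by 1.28 ± 0.16. Tug1, a broadly expressed RNA, was the smallest fall that passed (by 0.53 ± 0.10, adjusted p = 8.16e-05). The rises were Lncenc1, from 1.79 and 1.58 to 3.01 and 2.88 (1.26 ± 0.14, adjusted p = 4.43e-08), and Zswim6, which RefSeq lists as protein coding, by 1.24 ± 0.15 (adjusted p = 1.5e-07).

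From 108 h to 120 h, 12 members rose and only Zswim6 fell, 11.2% against 4.12% of all genes (2.39% up and 1.73% down), and 12 of the 91 changed. Of the 48 with no exon overlap 7 rose and 1 fell. This step shares the 108 h libraries with the one before, so a low value at 108 h enters both. Of the 12 that rose, 9 had fallen from 72 h to 108 h. The others were Neat1, Gm53 and Gm13110. Miat rose from -0.54 and -0.13 log2 CPM to 2.03 and 1.89 (2.29 ± 0.31, adjusted p = 4.86e-06). Neat1 rose from 5.93 and 6.01 to 8.05 and 8.23 (2.17 ± 0.13, adjusted p = 9.67e-12), to its highest level of the course. Gm53, a lincRNA on chromosome 11 (96251105 to 96264868, plus strand), rose from 1.26 and 1.11 to 3.23 and 3.18 (2.02 ± 0.22, adjusted p = 2.24e-07). For each of them both 120 h libraries were far above both 108 h libraries. Panct2 rose from 1.24 and 1.27 to 3.02 and 3.08 (1.80 ± 0.13, adjusted p = 2.85e-10). Without 108 h A, 120 h A or 120 h B, Miat rose by 2.09, 2.22 and 2.36 with adjusted p of 0.000452, 0.000283 and 0.000173. Zswim6 missed the threshold without any one of the 4 libraries (adjusted p from 0.000747 to 0.0014), and Gm13110 without 108 h B (1.56, adjusted p = 0.000156). The count was 7 without 108 h B and 8 without 120 h B.

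At a looser adjusted p of 0.05, the members changed were 49.1% from 0 h to 6 h against 58% of all genes, 41.4% against 38.4% to 24 h, and 21.6% against 29.9% to 48 h. They were 36.2% against 40.9% to 72 h, 47.4% against 45.4% to 108 h and 34.5% against 26.9% to 120 h. Against 0 h they were 57.8% at 48 h, with 61.9% of all genes, and 46.6% at 120 h, with 52.2%.

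**Figure D4:**
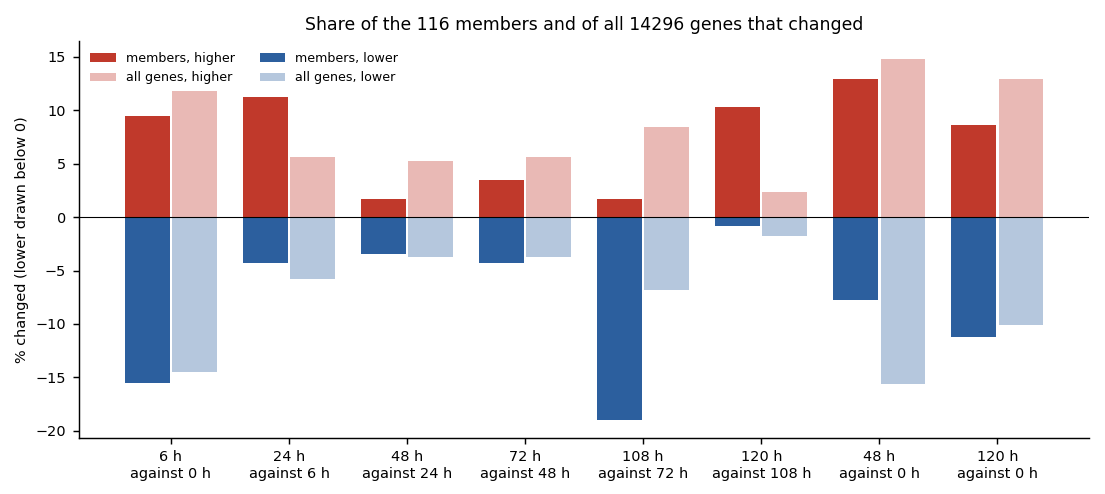
Percent of the 116 members (dark bars) and of all 14296 genes (pale bars) that passed an adjusted p of 0.0001 in each comparison, with rises above 0 in red and falls below 0 in blue. From 72 h to 108 h 22 members fell and 2 rose, while among all genes 8.42% rose and 6.86% fell.

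Over the longer spans, which share the 0 h libraries, 15 members were higher and 9 lower at 48 h than at 0 h, 20.7% against 30.4% of all genes (14.8% up and 15.6% down). At 120 h, 10 were higher and 13 lower than at 0 h, 19.8% against 23% of all genes (12.9% up and 10.1% down). Among the 91 members described above 23 and 22 changed, and of the 48 with no exon overlap 9 and 16. Mir124a-1hg was at 6.00 and 6.02 log2 CPM at 0 h, at 2.07 and 2.05 at 48 h and at 3.06 and 3.59 at 120 h, a difference of -2.69 ± 0.31 over the whole course (adjusted p = 3.18e-08). Halr1 was at 4.49 and 4.56 at 0 h and at 1.79 and 2.47 at 120 h (-2.39 ± 0.29, adjusted p = 8.61e-08). Gm13110 went from 4.92 and 4.90 to 2.57 and 2.72 (-2.26 ± 0.22, adjusted p = 2.03e-09). In these 3 the 120 h libraries were all below the 0 h libraries. The rises at 120 h were led by A330035P11Rik (1.64 ± 0.23, adjusted p = 1.29e-06) and A930024E05Rik (1.59 ± 0.12, adjusted p = 1.56e-11), the former with an adjusted p of 0.000104 without 0 h A. The count at 120 h was 13 without 0 h A, 11 without 120 h A, 11 without 0 h B and 13 without 120 h B. At 48 h Miat was 2.01 ± 0.31 above 0 h (adjusted p = 3.89e-06), and 1.72 without 0 h A (adjusted p = 0.000463) and 1.83 without 48 h A (adjusted p = 0.000304).

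Both listed RNAs of nuclear bodies were members. Malat1, of the nuclear speckles, had its lowest mean at 42 h (7.42 log2 CPM) and its highest at 78 h (9.65). It was at 8.62 and 9.19 log2 CPM at 0 h, 7.19 and 7.76 at 36 h and 9.51 and 9.75 at 120 h. Its F test passed (adjusted p = 1.37e-07), but none of the 8 steps or spans did, and its SD between duplicates was 0.32 against 0.13 for Neat1. Neat1 differed by -2.96 ± 0.13 at 48 h against 0 h (adjusted p = 1.94e-16), and its difference of 0.48 ± 0.13 at 120 h against 0 h did not pass (adjusted p = 0.00296).

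Of the listed X-linked RNAs, Xist, Tsix, Jpx, Ftx and Firre, the members were Ftx, Tsix and Firre, and all 3 passed the F test. Of all genes 74.6% passed it. In all, 8 members lie on the X chromosome, of which 7 passed, and 9530027J09Rik did not (adjusted p = 0.793). Tsix, the antisense repressor of Xist, was at 4.98 and 4.92 log2 CPM at 0 h, at 4.08 and 4.38 at 72 h and at 3.05 and 2.70 at 108 h (-1.35 ± 0.24 for the last step, adjusted p = 3.7e-05). Xist, which lies on the other strand of Tsix, had a mean of 1.28 and was no member. Ftx was at its highest at 60 h, with 5.16 and 4.93, then stood at 3.54 and 3.74 at 120 h, still 1.45 ± 0.16 above 0 h (adjusted p = 9.32e-09). Firre took another path, from 3.54 and 3.39 at 0 h to 1.92 and 2.17 at 36 h and 4.76 and 4.94 at 120 h (1.38 ± 0.23 above 0 h, adjusted p = 1.43e-05).

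Of the listed RNAs known from stem cells, Lncenc1, Platr4, Platr14, Platr15, Platr21 and Platr22 were members. All 6 passed the F test, against 74.6% of all genes, and their courses were unlike. At 120 h against 0 h, Platr14 (1.47 ± 0.17, adjusted p = 5.38e-08), Platr15 (1.24 ± 0.23, adjusted p = 4.68e-05) and Lncenc1 (0.86 ± 0.14, adjusted p = 1.1e-05) were higher. Platr4 was lower (-0.97 ± 0.17, adjusted p = 3.38e-05). Lncenc1 was at 2.82 and 2.94 log2 CPM at 0 h, 1.79 and 1.58 at 72 h and 3.68 and 3.78 at 120 h. Platr22 was lowest at 6 h (2.32) and highest at 102 h (4.47), and Platr21 stayed within 1.20 log2. Panct2, which was not on that list, fell from 0 h to 6 h, from 24 h to 48 h and from 72 h to 108 h, and stood at 4.76 and 4.74 at 0 h against 3.02 and 3.08 at 120 h.

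Of the widely expressed RNAs 7 were members, Tug1, Zfas1, Epb41l4aos, Mir17hg, Pvt1, Dleu2 and Miat. The F test called 4 of them, against 74.6% of all genes. Zfas1, a snoRNA host (adjusted p = 0.000383), Dleu2 (adjusted p = 0.00268) and Epb41l4aos (adjusted p = 0.0169) did not. Pvt1, a neighbour of the oncogene Myc, was at 3.49 and 3.63 log2 CPM at 0 h, 1.12 and 1.26 at 90 h and 2.69 and 2.69 at 120 h (F test, adjusted p = 1.63e-12). Of the listed RNAs of neural and homeobox loci, Evx1os had a mean of -2.30 and Hotairm1 of -1.57, and none was a member.

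Among the microRNA hosts, Mir17hg and the let-7 host differed in the time of their highest level. Mir17hg was highest at 60 h, with 7.84 and 7.76 log2 CPM, and stood at 6.5 and 6.69 at 120 h, 0.85 ± 0.14 above 0 h (adjusted p = 7.45e-06). 6720427I07Rik was at 2.38 and 2.83 at 0 h, at 1.77 and 2.06 at 18 h and at 3.72 and 3.56 at 108 h, its highest time (F test, adjusted p = 5.04e-09), and passed at none of the 8 steps or spans. Dleu2 stayed between time means of 3.02 and 3.85. Gm15884, antisense to Phb2 and spanning Mir141 and Mir200c, differed by 2.18 between the duplicates at 72 h, and its F test gave an adjusted p of 0.483.

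Of the members, 33 had a coding partner on the other strand with start sites within 2000 bp. Some of these, such as Gm11175 with Jund, overlap the partner and are not read away from it. The Pearson correlation of member and partner over the 21 time means had a median of 0.389, from -0.491 to 0.882, and was above 0 for 26 of 33. Over 0.8 were 5031425E22Rik with Kmt2e (0.882), Gm10244 with Mkrn1 (0.829), Gm26582 with Cdkl2 (0.816) and 2500002B13Rik with Sap30 (0.809). The points of a pair share libraries, and Gm10244 and Gm26582 also overlap exons of their partner. For the 25 members of the overlapping group the median was 0.324, from -0.481 to 0.913, the highest being Gm26586 with Tpm4. These correlations are descriptions over times that follow each other.

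2500002B13Rik starts 194 bp from Sap30, a subunit of the Sin3 deacetylase complex. It was at 4.09 and 4.14 log2 CPM at 0 h and at 1.26 and 0.99 at 108 h, while Sap30 was at 5.96 and 6.02 and at 5.12 and 5.23. From 72 h to 108 h both fell, 2500002B13Rik by 1.67 ± 0.15 (adjusted p = 4.92e-10) and Sap30 by 0.893 (adjusted p = 3.88e-05). From 0 h to 6 h Sap30 rose by 0.963 (adjusted p = 8.29e-06), while the member differed by 0.013. A930024E05Rik starts 469 bp from Kdm2b, which brings Polycomb proteins to CpG islands. Its exons overlap those of Kdm2b on the other strand, and Kdm2b had a mean of 7.65 against 3.57 for the member. The part of Kdm2b reads in the values of A930024E05Rik was not tested. A930024E05Rik went from 2.0 and 1.79 at 0 h to 4.0 and 3.93 at 48 h (2.07 ± 0.12, adjusted p = 7.53e-14) and stood at 4.15 and 4.11 at 108 h. Kdm2b went from 6.78 and 6.82 to 8.23 and 8.12 over the first span (adjusted p = 1.03e-12) and was back at 7.04 and 7.21 at 108 h. Map2k3os starts 166 bp from Map2k3, and from 72 h to 108 h, where the member fell by 1.96, Map2k3 differed by -0.113 (adjusted p = 0.403).

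**Figure D5:**
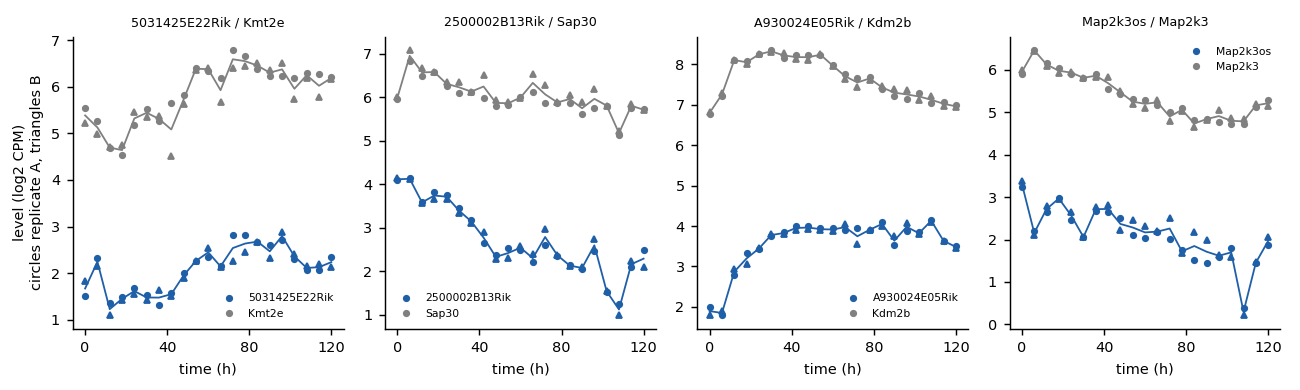
Levels (log2 CPM) of 4 members (blue) and of the coding partner of each (grey) against time in hours. Circles stand for replicate A and triangles for B, with lines through the means. Kmt2e and 5031425E22Rik had r = 0.882 over the time means, but from 0 h to 6 h they changed by -0.259 and 0.573. A930024E05Rik was at 4.15 and 4.11 at 108 h, above its 0 h level, where Kdm2b was at 7.04 and 7.21.

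The windows from 250 bases before to 50 after the start are shown for 3 of these members, since a shared start region is what the pairs have in common. They are from RefSeq (GRCm38.p6), which held such a window for 67 of the 116 members. Capitals mark the GC box GGGCGG, the CCAAT box CCAAT and the TATA box TATAAA on either strand. The window of 2500002B13Rik is chr8:57487713-57488012 (plus strand), that of A930024E05Rik chr5:122989104-122989403 (plus strand) and that of Map2k3os chr11:60931818-60932117 (minus strand).

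2500002B13Rik: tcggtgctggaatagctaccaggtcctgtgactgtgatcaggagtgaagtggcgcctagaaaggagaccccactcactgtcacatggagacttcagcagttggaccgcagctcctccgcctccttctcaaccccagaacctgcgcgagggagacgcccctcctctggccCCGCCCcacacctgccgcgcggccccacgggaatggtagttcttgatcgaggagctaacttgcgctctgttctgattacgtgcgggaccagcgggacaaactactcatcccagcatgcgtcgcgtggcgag
A930024E05Rik: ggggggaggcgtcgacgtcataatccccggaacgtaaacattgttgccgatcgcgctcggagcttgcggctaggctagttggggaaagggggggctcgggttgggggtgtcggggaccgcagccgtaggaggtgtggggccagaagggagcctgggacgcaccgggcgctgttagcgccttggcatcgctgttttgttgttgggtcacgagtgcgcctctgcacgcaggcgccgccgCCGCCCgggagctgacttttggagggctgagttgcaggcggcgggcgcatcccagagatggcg
Map2k3os: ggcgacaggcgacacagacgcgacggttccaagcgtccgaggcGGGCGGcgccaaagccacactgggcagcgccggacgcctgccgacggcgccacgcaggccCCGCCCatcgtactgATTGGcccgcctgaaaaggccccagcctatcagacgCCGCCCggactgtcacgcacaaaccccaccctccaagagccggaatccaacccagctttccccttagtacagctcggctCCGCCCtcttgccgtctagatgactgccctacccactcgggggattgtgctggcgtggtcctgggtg

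The window of Map2k3os held 4 GC boxes and 1 CCAAT box, and the others held 1 GC box each. None of the 3 held the TATA letters. Their CpG pairs numbered 30 in Map2k3os, 21 in 2500002B13Rik and 31 in A930024E05Rik. The windows were matched to the members by symbol, and some lie far from the GENCODE start. The distance was 89355 bp for Trerf1, 1511 bp for Mir17hg and 859 bp for Tug1. Over the 67 members with a window, 50.7% held a GC box, 40.3% a CCAAT box and 7.46% a TATA box. Over all 32851 windows, which were not chosen by level as the members were, the shares were 35.7%, 37.4% and 13.6%.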

How the data were processed

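Poly-A RNA of 42 libraries, 2 per time point, was sequenced with a stranded Agilent kit. Per the labels and methods, the authors used Trim Galore! for trimming, Tophat2 for alignment to mm10, HTSeq for counts on GENCODE vM2, edgeR for library size and voom for the log2 scale. The deposited values are log2 CPM with voom's offset of 0.5 reads. Tool versions and the strand setting of the counting are not given in the sources used here. Read counts recovered from the values were whole to within 2.86e-08 of a read. They were used for depth, for shares of reads, for the simulated data and for the alternatives with voom weights and an offset of 2 reads. The main fit used the deposited values.

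GENCODE vM21 held 14177 of the 14296 gene identifiers and gave biotypes, positions and overlaps. A factor of 21 time points was fitted to all 42 libraries with limma 3.58.1 (R 4.3.3, lmFit, eBayes with trend, 21 residual degrees of freedom), and p-values were Benjamini-Hochberg adjusted over all 14296 genes within a comparison. Errors of differences are the moderated SE of limma for 2 libraries a time, from a spread pooled over all 42 libraries. They do not show the spread of the duplicates at the times compared. Read sampling also limits the faintest values. The fit was tested on simulated data. Python 3.11.15 computed the summaries.

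The members and lists were chosen with earlier results of these data known. Named were the 10 highest means, up to 4 rises and 4 falls per comparison with the same sign in both replicates, the listed RNAs, microRNA hosts, members beside the threshold and members with a coding partner. Alternatives were a replicate block, voom weights, median centring, an offset of 2 reads, a filter at a mean of 0, an adjusted p of 0.05 and each library left out. Leaving out members that RefSeq lists as protein coding, or the 25 of the overlapping group, was added after the data were seen.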

Additional observations from a re-analysis of the deposited data

How the results depend on the processing

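At an adjusted p of 0.05 the members changed numbered 57 from 0 h to 6 h, 48 to 24 h, 25 to 48 h, 42 to 72 h, 55 to 108 h and 40 to 120 h, and 67 and 54 at 48 h and 120 h against 0 h. Leaving out 1 library gave 15 to 20 from 0 h to 6 h, 3 to 7 from 48 h to 72 h, 7 to 10 from 108 h to 120 h and 11 to 13 at 120 h against 0 h. The fit then has fewer samples and assumes that the lone library varies like the others. Voom weights, median centring, an offset of 2 reads, the filter and leaving out either group of members kept each count within 1.5 times. So did the replicate block, which gave 33, 19, 9, 11, 26, 17, 33 and 25 members in the order above and 79 in the F test. The differences between A and B correlated by 0.0795 on average over 210 pairs of times, and 47.14% of the pairs were over 0.1. Over the differences named by rule, 468 repeats kept their side of the threshold, 45 lost it and none reversed.

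With 2 libraries a time the spread between duplicates limits each difference, and a fall below 3 reads (0.0571 to 0.316 CPM) could not be followed. Members read across a coding gene carry the widest spread.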
